A study of Mus musculus with 32 samples.

Results

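The aryl hydrocarbon receptor pathway was followed through 6 genes matched by symbol among the 55401 genes of the count files. They are Ahr, which encodes the receptor, Arnt, its dimerization partner, Ahrr and Tiparp, which restrain the receptor, and Cyp1a1 and Cyp1b1, which encode cytochrome P450 enzymes. All 6 were tested. Their levels were compared in the dorsal epidermis of 32 hairless mice of mixed SKH-1/SV129/BL6/J background (B6.129-SKH1-Hr hr in the study's methods), aged 10 to 14 weeks, separated from the dermis. Wild-type mice (WT, 16 mice) and littermates labelled -/- for Ppard, the gene of the nuclear receptor PPARβ/δ (KO, 16 mice), were either sham-handled without exposure (Control) or collected 24 h after 1 UV dose of 120 mJ/cm2, below the dose that reddens the skin, with 4 males and 4 females in each of the 4 conditions. Every library came from 1 mouse, and mice are named by the number and sex letter of their label.

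AHR is a transcription factor of the basic helix-loop-helix PAS family that waits in the cytoplasm in a complex with heat shock protein 90 until a ligand binds. Ligands include dioxin-like pollutants and tryptophan products, among them a photoproduct that UV light forms from tryptophan in skin. The loaded receptor enters the nucleus, pairs with ARNT and binds short DNA elements near its target genes. CYP1A1 and CYP1B1 then oxidize and remove the ligand, AHRR competes for ARNT, and TIPARP attaches ADP-ribose to the receptor, so that the target genes close a feedback loop. In mice the Ahr alleles of the C57BL/6 and 129 strains differ in ligand affinity, and the labels do not say which allele each animal of this mixed background carried.

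In the annotation of the GRCm38 build, all 6 genes are protein-coding. Ahr lies at chr12:35497974-35535038 on the minus strand, Arnt at chr3:95434388-95497240 on the plus strand, Ahrr at chr13:74211118-74292331 on the minus strand and Tiparp at chr3:65528410-65555518 on the plus strand. Cyp1a1 lies at chr9:57687928-57703824 on the plus strand and Cyp1b1 at chr17:79701537-79715061 on the minus strand, on the chromosome of Ppard but 51.4 Mb from it. Ahr shares 2.06% of its exon bases with the opposite-strand gene Gm48236, and Tiparp shares 5.12% with the opposite-strand gene 4931440P22Rik. The library kit keeps strand, but the strand setting of the counting was not given in the sources used here, so reads in those bases cannot be assigned with certainty.

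The AHR-ARNT dimer recognises elements built around the letters GCGTG, or CACGC when read on the other strand. In the RefSeq table of promoters (GRCm38.p6), 5 of the 6 genes had an entry, and each of the 5 held the core at least once in the 250 bases before its start. Ahr had no entry. Of all 32851 windows of that length, 28.2% held at least 1 core, 8.63% at least 2 and 2.77% at least 3 on both strands together. The Ahrr window held 3 cores, at positions -107, -82 and -27 from the start. The Cyp1a1 window held 1 at -54, the Arnt window 1 at -29, and the windows of Cyp1b1 and Tiparp 1 each on the opposite strand, at -76 and -170. Positions count from the RefSeq start, and that of Cyp1a1 lies inside the annotated span given above rather than at its first base. The windows of the 5 genes had a GC content of 53.6% to 75.2%, against a median of 52.4% over all windows, and a match of letters is not a bound site. The windows of the 3 feedback and enzyme genes that passed a test after UV are shown 5′ to 3′ on the gene's own strand, with the core in capitals. They lie at chr13:74292332-74292581 (minus strand, Ahrr), chr9:57697363-57697612 (plus strand, Cyp1a1) and chr3:65528197-65528409 (plus strand, Tiparp, cut at the first annotated exon).
Ahrr: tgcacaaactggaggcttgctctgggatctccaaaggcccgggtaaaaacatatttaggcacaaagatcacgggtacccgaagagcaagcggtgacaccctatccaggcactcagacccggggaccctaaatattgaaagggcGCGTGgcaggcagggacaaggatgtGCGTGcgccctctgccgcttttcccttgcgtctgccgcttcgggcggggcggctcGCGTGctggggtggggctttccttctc
Cyp1a1: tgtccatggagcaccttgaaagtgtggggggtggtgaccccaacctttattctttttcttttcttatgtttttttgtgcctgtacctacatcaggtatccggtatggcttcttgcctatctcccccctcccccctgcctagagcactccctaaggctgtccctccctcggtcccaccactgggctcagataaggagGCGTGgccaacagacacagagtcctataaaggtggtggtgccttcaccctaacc
Tiparp: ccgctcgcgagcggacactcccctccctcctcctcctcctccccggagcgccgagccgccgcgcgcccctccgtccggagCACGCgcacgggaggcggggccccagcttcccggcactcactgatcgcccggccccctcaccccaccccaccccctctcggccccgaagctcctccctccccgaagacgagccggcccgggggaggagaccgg

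The depth of the libraries ran from 22919428 to 40653581 gene reads, with a median of 27600228. Levels are cpm, read counts relative to the library total after TMM normalization, and folds are log2 values from 1 edgeR quasi-likelihood fit of all mice that averages both sexes, with P values adjusted over all 15546 genes tested. The gene-level count of Ppard itself ran from 70.3 to 88.9 cpm in KO Control mice and from 87.3 to 105 cpm in WT Control mice, so the genotypes overlapped. After UV it ran from 175 to 239 cpm in KO and from 252 to 326 cpm in WT, without overlap. A count over the whole gene does not show whether a deleted part is missing. The keratinocyte markers Krt5, Krt14, Krt1, Krt10, Trp63 and Dsp were present in every library, and their summed level was lower after UV without overlap. It ran from 73907 to 85440 cpm in WT Control, 33383 to 48200 in WT UV, 70003 to 110490 in KO Control and 28638 to 58677 cpm in KO UV mice, and its part in the changes after UV was not tested. Mouse 54F, a KO female exposed to UV, stood apart with 1982 cpm of 6 dermal fibroblast markers, against 1.73 to 92.2 cpm in WT mice and in KO Control mice and a median of 11.2 cpm in KO UV mice. Without 54F the number of the 6 genes called after UV was again 3 in WT and 4 in KO, and 0 for the genotype differences. Because epidermis was sequenced in bulk, fewer cells of a type and less RNA per cell cannot be told apart.

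UV changed the pathway in both genotypes, but its genes did not move as 1 block. In WT epidermis 3 of the 6 genes were DEGs at an adjusted P value under 0.05. Tiparp rose, whereas Ahr and Ahrr fell. In KO epidermis 4 of the 6 were DEGs, since Cyp1a1 rose together with Tiparp while Ahr and Ahrr again fell. Arnt and Cyp1b1 passed in neither genotype. The response to this dose was broad. In WT, 71% of all genes tested were called (34.5% rose and 36.5% fell), and in KO 70.8% were called (37.3% rose and 33.5% fell), so 3 and 4 of 6 are not more than that background. The median fold over all genes was -0.01 in WT and 0.09 in KO on the log2 scale. UV-exposed and Control mice did not overlap at all for 3 of the 6 genes in WT and 2 in KO, where 43.4% and 35.1% of all genes had no overlap.

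**Figure D1:**
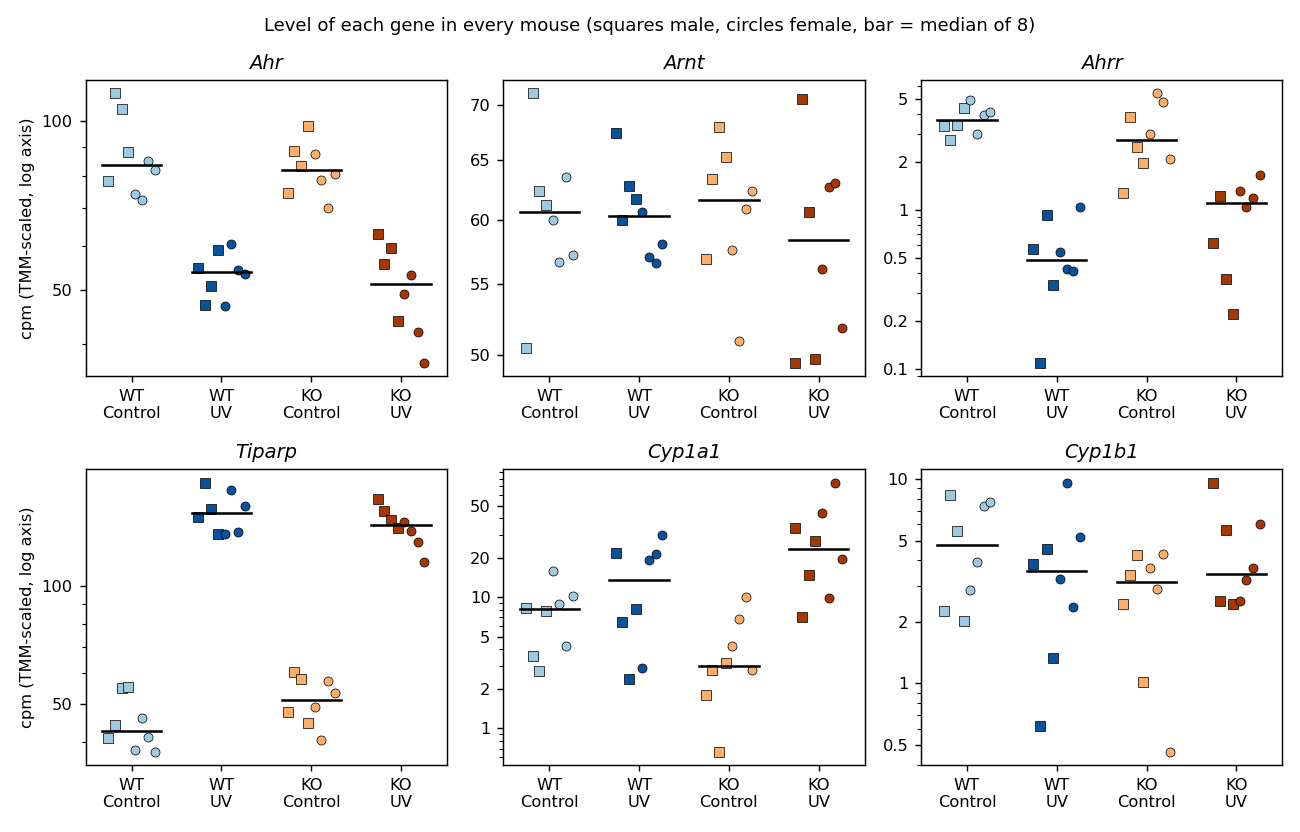
Level of each of the 6 genes in every mouse, in cpm on a log axis whose range differs between panels, by genotype and exposure. Squares are males, circles females and bars the median of 8 mice. Ahr and Ahrr are lower and Tiparp higher after UV in both genotypes, Arnt is level, and Cyp1a1 and Cyp1b1 spread widely inside every condition.

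The receptor itself fell after UV in both genotypes. Ahr measured 72.5 cpm at the lowest, 83.5 at the median and 112 at the highest in WT Control mice, and 46.9, 53.9 and 60.5 cpm in WT UV mice. Every exposed WT mouse was below every WT Control mouse. In KO the corresponding levels were 70.0, 81.9 and 98.3 cpm without UV and 37.1, 51.3 and 62.97 cpm after UV, again without overlap. Ahr fell by 0.70 on the log2 scale in WT (SE 0.088, adjusted P = 5.56e-08) and by 0.72 in KO (SE 0.088, adjusted P = 3.99e-08). The difference between these responses was -0.02 (SE 0.124, adjusted P = 0.966), with an interval of 2 SE either way from -0.26 to 0.23.

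Arnt, the obligate partner of AHR and of the hypoxia factor HIF1A, stayed near 60 cpm in all conditions. It ran from 50.5 to 71.1 cpm (median 60.6) in WT Control and from 56.6 to 67.4 cpm (median 60.3) in WT UV mice. In KO it ran from 50.99 to 67.9 cpm (median 61.6) without UV and from 49.5 to 70.5 cpm (median 58.4) after UV. The ranges overlapped almost completely. Its UV response was 0.00 in WT (2 SE interval -0.14 to 0.14, adjusted P = 0.97) and -0.06 in KO (interval -0.20 to 0.08, adjusted P = 0.439), which as folds are 0.909 to 1.11 and 0.868 to 1.06. With the Langerhans cell marker mean as a covariate, chosen after the data were seen, Arnt measured -0.26 in WT (SE 0.121, adjusted P = 0.0749) and fell by 0.23 in KO (SE 0.091, adjusted P = 0.0316). Expressed per kb of exon sequence, Control WT epidermis held 14.2 cpm of Ahr and 7.53 cpm of Arnt, and after UV both genes stood close together at 8.65 and 7.56 cpm per kb.

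Ahrr, the repressor that competes with AHR for ARNT, showed the deepest loss. In WT it measured 2.76, 3.69 and 4.92 cpm (lowest, median, highest) in Control mice and 0.109, 0.484 and 1.04 cpm after UV, where the counts were only 3 to 31 reads per mouse. No exposed WT mouse reached the lowest WT Control mouse. In KO it measured 1.28, 2.75 and 5.43 cpm without UV and 0.221, 1.11 and 1.67 cpm after UV, and the highest exposed mice reached into the Control range. Ahrr fell by 2.77 on the log2 scale in WT (SE 0.346, adjusted P = 5.36e-08), a fall to 0.147 of the Control level, and by 1.77 in KO (SE 0.334, adjusted P = 3.38e-05), to 0.294 of the Control level. The response in KO was 1.00 higher (SE 0.465), which did not pass after adjustment in edgeR (adjusted P = 0.232).

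Markers of resident immune cells fell with Ahrr. All 6 Langerhans cell markers fell in WT and 5 of 6 in KO, their summed level running from 668 to 1090 cpm in WT Control, 361 to 445 in WT UV, 607 to 1044 in KO Control and 380 to 826 cpm in KO UV mice. All 6 markers of dendritic epidermal T cells fell in both genotypes, from 15.5 to 112 cpm down to 17.6 to 48.1 cpm in WT and from 44.3 to 101 down to 21.3 to 45.9 cpm in KO. Over all genes 36.5% fell in WT and 33.5% in KO. The Langerhans cell marker mean of each mouse was also used as a covariate, an alternative chosen after the data were seen. In that fit Ahrr fell by 2.08 in WT (SE 0.554, adjusted P = 0.00243) and by 1.31 in KO (SE 0.437, adjusted P = 0.0107). The T cell markers were not used as a covariate. In WT the summed Langerhans cell level did not overlap between Control and UV mice, so the fit cannot separate that marker mean from exposure. Among mice of the same group the correlation of Ahrr with that marker mean was 0.30 (rho 0.32, adjusted P = 0.555 and 0.628).

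Tiparp, the ADP-ribosyltransferase that shuts down AHR and is itself an AHR target, carried the firmest rise. It measured 37.7, 42.6 and 55.0 cpm in WT Control mice and 136, 153 and 183 cpm in WT UV mice. In KO it measured 40.5, 51.2 and 60.2 cpm without UV and 115, 143 and 166 cpm after UV. The lowest exposed mouse stood far above the highest Control mouse in each genotype. The rise was 3.46-fold in WT (log2 1.79, SE 0.090, adjusted P = 7.82e-16) and 2.76-fold in KO (log2 1.47, SE 0.089, adjusted P = 3.8e-14). Per kb of exon sequence, Tiparp reached 35.4 cpm in WT and 32.6 cpm in KO after UV, the highest level of the 6 genes. The KO response was smaller by 0.32 on the log2 scale (difference -0.32, SE 0.123), and this difference did not pass after adjustment (adjusted P = 0.151 in edgeR and 0.0613 in DESeq2).

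Cyp1a1, the enzyme most used as a readout of AHR activity, rose in KO epidermis, whereas the WT change did not pass the test. In WT Control mice it measured 2.74, 8.09 and 16.0 cpm, and in WT UV mice 2.37, 13.6 and 29.9 cpm. Exposed WT mice therefore covered the whole Control range. In KO Control mice it measured 0.659, 2.96 and 10.1 cpm, and in KO UV mice 7.11, 23.1 and 74.9 cpm. The 2 lowest exposed KO mice overlapped the highest KO Control mouse. The UV response was 0.84 in WT (SE 0.480, adjusted P = 0.119) and 2.95 in KO (SE 0.515, adjusted P = 1.1e-05), a 7.75-fold rise with a 2 SE interval of 3.79 to 15.8. Without 1 exposed WT female, 51F at 2.87 cpm, the WT response became 1.02 and passed (adjusted P = 0.0482), and over all removals of 1 mouse it ran from 0.47 to 1.05.

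The test of the difference between the Cyp1a1 responses gave 2.11 on the log2 scale (SE 0.686), with an adjusted P of 0.109 in edgeR, 0.125 in limma-trend and 0.0496 in DESeq2, so the call depended on the tool. Without UV the KO level was lower than WT (difference -1.06, SE 0.493, adjusted P = 0.56), and after UV it was higher (difference 1.05, SE 0.477, adjusted P = 0.215), and neither difference passed. Removal of single mice left the difference between 1.78 and 2.47.

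Sebaceous gland transcripts moved with Cyp1a1. The list of 4 sebocyte markers holds Awat1 and Awat2, wax ester synthases, Elovl3, a fatty acid elongase, and Soat1, which esterifies sterols. Their summed level was 29.3 to 167 cpm in WT Control (median 88.5), 30.0 to 250 in WT UV (median 147), 20.6 to 146 in KO Control (median 36.9) and 107 to 746 cpm in KO UV mice (median 249). All 4 rose after UV in KO, by 1.72 for Soat1 to 2.98 for Elovl3, and 2 of 4, Awat1 and Elovl3, rose in WT. Over all genes 37.3% rose in KO and 34.5% in WT. In WT Awat2 measured -0.05 (adjusted P = 0.941) and Soat1 -0.26 (adjusted P = 0.603) in the edgeR fit, and neither passed. Mouse 66F, a KO female, was highest after UV both in these markers (746 cpm) and in Cyp1a1 (74.9 cpm), and 51F was lowest of the WT UV mice in the markers (30.0 cpm).

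**Figure D2:**
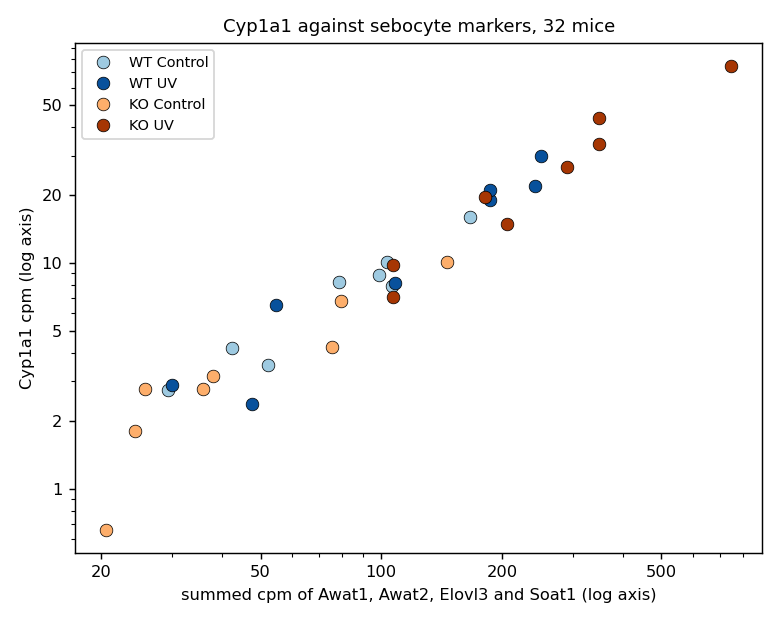
Cyp1a1 level against the summed level of the sebocyte markers Awat1, Awat2, Elovl3 and Soat1 in each of the 32 mice, in cpm on 2 log axes, coloured by condition. In all 4 conditions Cyp1a1 tends to be higher in mice with higher markers, from the lowest KO Control mouse (0.659 cpm of Cyp1a1) to KO UV mouse 66F (74.9 cpm). Per 100 cpm of the markers, Cyp1a1 ran from 3.20 to 12.6 cpm over all mice.

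Inside the groups this relation was tight. After the mean of its own group was removed from each mouse, Cyp1a1 and the sebocyte marker mean correlated at r = 0.94 (Pearson) and rho = 0.95 (Spearman) over 32 mice (permutation test, P = 1e-05 for both, the smallest that 100000 permutations within groups can give, adjusted P = 0.00054), and 0.92 without the 2 mice farthest out. Within the 4 conditions r was 0.98 in WT Control, 0.95 in WT UV, 0.82 in KO Control and 0.98 in KO UV mice. The relations of the 6 genes with 9 marker lists, 54 in all, were computed after the values had been seen, and this was the 1 that passed. Of 14914 genes, Awat1, Elovl3, Soat1 and Awat2 took ranks 8, 9, 20 and 31 by likeness to Cyp1a1 among mice of the same group, whereas Ahr took rank 8442, Ahrr 7138 and Tiparp 8010. For every 100 cpm of the 4 markers there were 9.06 ± 1.31 cpm of Cyp1a1 in WT Control, 9.57 ± 2.39 in WT UV, 7.31 ± 2.23 in KO Control and 9.40 ± 1.89 in KO UV mice (SD, n = 8 each), and the ranges of the 4 conditions overlapped.

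With the sebocyte marker mean as a covariate, an alternative also chosen after the data were seen, the UV response of Cyp1a1 was 0.28 in WT (SE 0.171, adjusted P = 0.144) and 0.58 in KO (SE 0.227, adjusted P = 0.0287). The difference between the genotypes became 0.30 (SE 0.268, adjusted P = 0.791). With the Langerhans cell marker mean as the covariate instead, the response was 2.12 in WT (SE 1.09, adjusted P = 0.102) and 3.85 in KO (SE 0.855, adjusted P = 0.000308), and the difference 1.73 (SE 0.727, adjusted P = 0.392). The sebocyte marker mean itself differed between the conditions, and the files do not show in which cells the Cyp1a1 reads arose. The sebocyte covariate left Tiparp at 1.79 in WT and 1.48 in KO.

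Cyp1b1, the related enzyme that also acts on steroids, had no response that passed. It measured 2.01, 4.74 and 8.36 cpm in WT Control, 0.618, 3.53 and 9.59 in WT UV, 0.461, 3.15 and 4.29 in KO Control and 2.44, 3.43 and 9.61 cpm in KO UV mice. All 4 ranges overlapped. The UV response was -0.46 in WT (SE 0.447, adjusted P = 0.367) and 0.65 in KO (SE 0.451, adjusted P = 0.199), with 2 SE intervals of -1.36 to 0.43 and -0.25 to 1.55, which as folds are 0.391 to 1.35 and 0.842 to 2.94. Without 1 mouse they ran from -0.70 (without WT female 57F) to -0.22 (without WT male 54M) in WT and from 0.36 (without KO male 58M) to 0.81 (without KO female 62F) in KO, and no removal gave a call. In WT the response was -0.79 in males alone and -0.07 in females alone. Mouse 54F, with its high dermal fibroblast markers, measured 3.19 cpm of Cyp1b1, close to the median of its condition. Its difference between genotypes was 1.11 (SE 0.635, adjusted P = 0.336).

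Between the genotypes, none of the 6 genes was a DEG. For the difference in UV response, 0 of 6 passed in edgeR, where 0.765% of all genes were called, and 1 passed in DESeq2 (Cyp1a1). Ahrr, Cyp1a1 and Tiparp had an unadjusted P under 0.05, 3 of 6 against 19.6% of all genes. In Control mice 0 of 6 passed (0.206% of all genes), with 2 of 6, Cyp1a1 and Tiparp, at an unadjusted P under 0.05 (8.52% of all genes). Tiparp was 0.20 higher in KO Control mice (SE 0.087, adjusted P = 0.507). After UV 0 of 6 passed (3.31% of all genes), with 2 of 6, Ahrr and Cyp1a1, under 0.05 before adjustment (20.1% of all genes). Ahrr was 0.71 higher in KO UV mice (SE 0.340, adjusted P = 0.244). DESeq2 and limma-trend also called 0 of 6 in both of these comparisons.

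**Figure D3:**
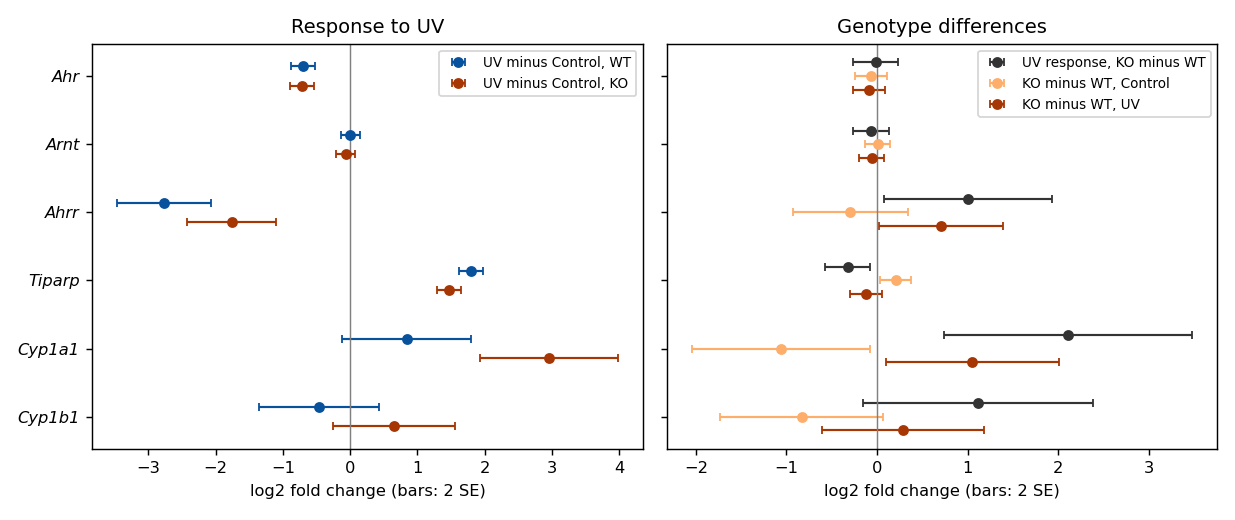
Log2 fold changes of the 6 genes, as points with bars of 2 SE from the edgeR fit of 32 mice. Left, the response to UV in WT and KO; right, the genotype differences in Control mice, in UV mice and in the UV response. Ahr and Ahrr lie below 0 and Tiparp above 0 in both genotypes, and Cyp1a1 has the largest genotype difference in response (2.11) with the widest bar.

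No difference in UV response between the sexes passed, and levels were not tested between the sexes. For the difference in UV response between the sexes 0 of 6 genes passed (0% of all genes were called in edgeR), 0 of 6 had an unadjusted P under 0.05 (7.02% of all genes), and DESeq2 and limma-trend also called 0. The smallest P of the 6 was 0.551, for Ahr, whose response was 0.07 higher in females (2 SE interval -0.17 to 0.32). For Cyp1a1 the interval, -1.62 to 1.09, held changes of more than 2-fold either way. The mean Cyp1a1 level was 37.1 ± 29.0 cpm in KO UV females and 20.6 ± 11.9 cpm in KO UV males, and 18.2 ± 11.3 against 9.73 ± 8.46 cpm in WT UV females and males (SD, n = 4 each), with overlapping ranges in both genotypes.

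The 6 genes differed widely in how far mice of 1 group lay apart. The pooled within-group SD of log2 cpm was 1.09 for Cyp1a1, 1.00 for Cyp1b1 and 0.68 for Ahrr, larger than in 92.7%, 91.3% and 82.9% of 14915 genes. It was 0.18 for Ahr, 0.18 for Tiparp and 0.14 for Arnt, below the median of 0.25 over all genes. In KO Control mice the highest Cyp1a1 level was 15.3 times the lowest, and in WT UV mice the highest Cyp1b1 level was 15.5 times the lowest, whereas Tiparp varied by no more than 1.49-fold inside any condition. The enzymes had low levels per length as well, 2.76 cpm per kb for Cyp1a1 and 0.858 for Cyp1b1 in WT Control mice, against 10.3 for Tiparp, and only Ahrr was lower (0.396).

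A mouse that was high for 1 gene of the pathway was not reliably high for another. Over 15 pairs the within-group correlation ran from -0.35 for Arnt with Cyp1a1 to 0.44 for Ahrr with Cyp1b1 (n = 32 mice, permutation test, adjusted P = 0.37 for both), and 0 of the 15 pairs passed by Pearson or by Spearman correlation. At an unadjusted P the smallest was 0.0533. Between Ahr and Cyp1a1 the correlation was -0.06 (rho -0.07, adjusted P = 0.985 and 0.9). Without the 2 mice farthest from the median Ahr level it was 0.03.

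The pattern of each of the 6 genes was set beside that of every other gene. By the correlation of within-group deviations over 32 mice, given as a description, the closest of 14914 genes were Trim23 (0.83), Pstpip2 (0.83) and Erbb3 (0.82) for Ahr, and Btbd7 (0.90), 9930021J03Rik (0.90) and Scaf11 (0.89) for Arnt. For Ahrr they were Cemip (0.69), Runx3 (0.67) and Dpep2 (0.66), and for Tiparp Mfsd14a (0.83), Dyrk2 (0.81) and Lrrc58 (0.74). For Cyp1b1 they were D130007C19Rik (0.74), Arhgef28 (0.67) and Add2 (0.65). For Cyp1a1 they were Snap91 (0.95), Pdzk1 (0.95) and Pnpla5 (0.95), the highest values of the 6 sets. Of these 3 genes Snap91 (log2 1.79, adjusted P = 0.00358) and Pnpla5 (log2 2.34, adjusted P = 0.00011) rose after UV in KO, and Pdzk1 measured 1.41 (adjusted P = 0.056). In WT they measured 0.19, 0.40 and -0.63 for Snap91, Pnpla5 and Pdzk1, none of which passed. All these points share library and depth.

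Genes of the receptor complex and related PAS partners mostly rose. Of a list of 9, 8 were tested (not Hif3a), and 6 rose in each genotype, while 1 fell in WT and 2 in KO. Over all genes 34.5% rose and 36.5% fell in WT, and 37.3% rose and 33.5% fell in KO. The median response was 0.52 in WT and 0.56 in KO, against -0.01 and 0.09 over all genes. Hsp90aa1, the inducible form of the chaperone that holds AHR in the cytoplasm, measured 22.3 to 42.6 cpm in WT Control and 154 to 336 cpm in WT UV mice, and 21.1 to 44.8 and 185 to 439 cpm in KO, without overlap. It rose by 2.998 in WT and 3.16 in KO (SE 0.177 and 0.179, adjusted P = 2.12e-14 and 9.34e-15). Hsp90ab1, the HSP90 gene of the list with the higher level, changed far less and was named after its values were seen. Its level was 1532 to 1780 cpm in WT Control and 1982 to 2150 cpm in WT UV mice. In KO the level was 1594 to 1899 cpm without UV and 1858 to 2044 cpm after UV. Its rise was 0.28 in WT and 0.17 in KO. Src, a kinase of the cytoplasmic complex, rose by 1.85 and 1.91, and Hif1a, the hypoxia factor that shares ARNT, by 1.37 and 1.09. Arnt2, the close relative of Arnt, fell by 1.01 and 0.72. Epas1, a second hypoxia factor, fell by 0.34 in KO and measured -0.10 in WT (adjusted P = 0.296).

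Other genes known as AHR targets split in both directions. Of a list of 13, 12 were tested (not Cyp1a2). In WT 5 rose and 7 fell, and in KO 4 rose and 7 fell. Gsta1, counted among the falls, reached 1 cpm only in Control mice (at most 0.982 cpm in WT UV and 0.835 cpm in KO UV mice). Its calls therefore cannot count as support for a fall. Over all genes 71% were called in WT and 70.8% in KO. The median response was -1.59 in WT and -1.36 in KO, against -0.01 and 0.09 over all genes. Ptgs2, the inducible prostaglandin synthase, measured 0.767 to 4.37 cpm in WT Control and 36.8 to 93.3 cpm in WT UV mice, and rose by 4.97 in WT and 4.64 in KO (adjusted P = 3.59e-13 and 1.25e-12). Serpinb2, a protease inhibitor of keratinocytes, rose by 2.55 and 2.05, and Nqo1, a quinone reductase that is also a target of NRF2, by 1.8045 and 2.28. Several conjugating enzymes of the same battery fell. Gsta2, a glutathione transferase, measured 9.13 to 17.0 cpm in WT Control and 0.924 to 1.93 cpm in WT UV mice, and fell by 3.37 in WT and 3.10 in KO (adjusted P = 2.3e-13 and 1.07e-12). Ugt1a6b fell by 3.37 in WT and 2.03 in KO, and Ugt1a6a, which shares exons with it, fell by 3.09 in WT and 3.22 in KO. Scin, an actin-severing protein, fell by 3.43 in WT and 2.54 in KO. The split of reads between Ugt1a6a and Ugt1a6b, and between Gsta1 and Gsta2, which are close copies, is uncertain.

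**Figure D4:**
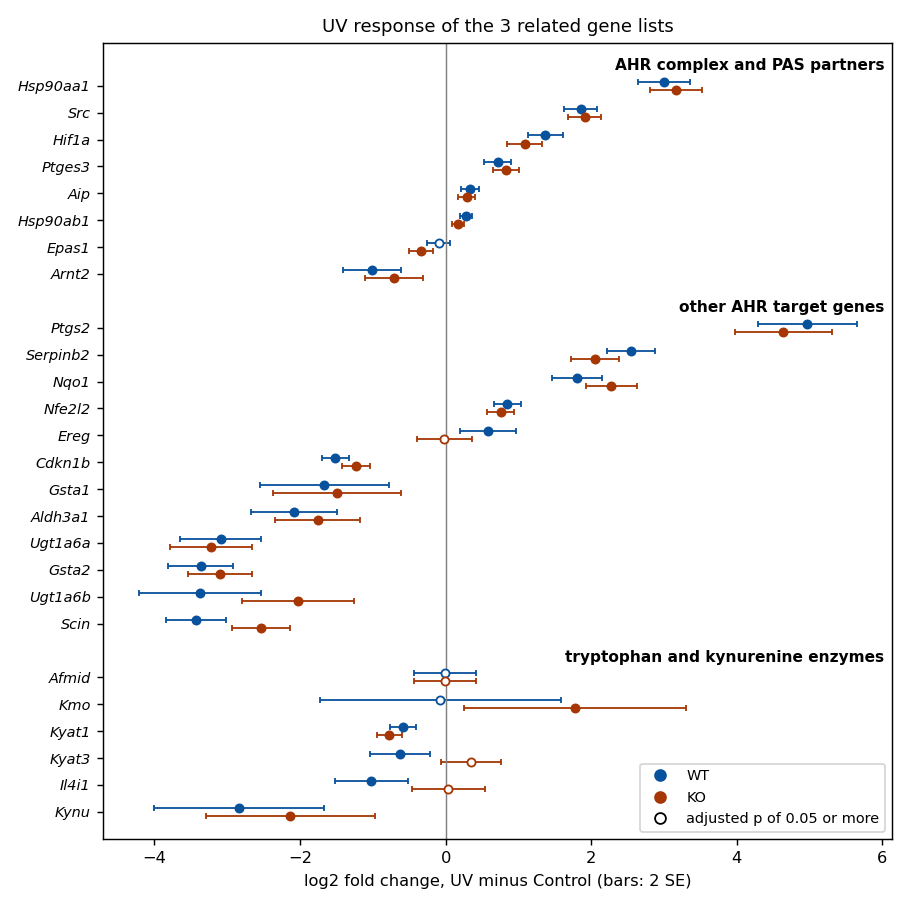
UV response of the tested genes of 3 lists, the AHR complex and its PAS partners, other AHR targets, and enzymes of the tryptophan and kynurenine route, as log2 fold changes with bars of 2 SE in WT and KO. Open points did not pass the test. Chaperones and Ptgs2 lie to the right, and Gsta2, Ugt1a6a, Ugt1a6b, Scin and Kynu lie to the left in both genotypes.

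Enzymes that make or remove tryptophan-derived ligands were measured in part. Of a list of 10, 6 were tested, since Ido1, Ido2, Tdo2 and Aadat did not reach 1 cpm in any mouse. In WT 0 rose and 4 fell, and in KO 1 rose and 2 fell, with a median response of -0.61 in WT and 0.01 in KO against -0.01 and 0.09 over all genes. These 4 and 3 calls of 6 are below the 71% and 70.8% called over all genes. Kynu, the kynureninase that breaks down kynurenine, fell by 2.84 in WT and 2.13 in KO (adjusted P = 9.92e-05 and 0.0019), from a low level of 0.482 to 1.55 cpm in WT Control mice. After UV it reached at most 0.285 cpm in WT and 0.525 cpm in KO, so it passed the filter only through Control mice. Its calls, counted among the falls above, therefore cannot count as support for a fall. Il4i1, an amino acid oxidase that forms AHR agonists from tryptophan, fell by 1.02 in WT and Kyat3 by 0.63, whereas in KO they measured 0.04 and 0.35 and did not pass. Kyat1, a kynurenine aminotransferase, fell by 0.77 in KO and by 0.59 in WT. The 1 gene that rose in KO was Kmo (log2 1.78, adjusted P = 0.0389), named after its values were seen. It had a mean of 8.84 reads and, in KO UV mice, a median of 0.227 cpm with 1 mouse at 4.96 cpm. Its highest level elsewhere was 0.341 cpm, in WT UV mice, so it passed the filter only through the KO UV mice. The call therefore cannot count as support for a rise. None of the tested genes of the 3 lists passed for a difference between genotypes or for a difference in UV response between the sexes. Kyat3 came nearest for the genotype difference in UV response (0.98, SE 0.291, adjusted P = 0.0867), also picked after its value was seen.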

How the data were processed

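RNA was isolated from the epidermis of 32 mice and sequenced as TruSeq stranded mRNA libraries. Per the labels and the study's methods, the authors trimmed reads with Cutadapt 1.8, removed ribosomal and low-complexity reads, aligned with STAR 2.5.3a and counted reads per gene with HTSeq 0.9.1. The deposited values are raw read counts per gene, without filtering or pooling. The submitters' notes name the build GRCm38, and 55141 of the 55401 gene identifiers are in GENCODE M21, which gave symbols, coordinates and exon lengths. Reads on no gene (6.80% to 9.75% of the reads) and ambiguous reads (1.28% to 1.56%) were left out.

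Genes below 1 cpm in every mouse were dropped. Counts were scaled by TMM and fitted with a mean for each of the 8 groups in edgeR 4.0.16 (R 4.3.3) by the quasi-likelihood test, with Benjamini-Hochberg adjustment over all genes of a contrast. Contrasts weighted both sexes equally. The fit was also run on simulated counts with less spread and far fewer changed genes than these data. That run therefore does not measure the error rate of the calls made here. Alternatives were RLE scaling, DESeq2 1.42.0, limma-trend (limma 3.58.1, as in the study's methods), filterByExpr, no filter, a fold change over 1.5 as a further threshold, 1 sex or 1 genotype alone, removal of each mouse and, added after seeing the data, marker means as covariates. Correlations used log2 cpm with a prior count of 1 minus the group mean, and two-sided permutation tests with 100000 resamples within groups.

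The members, gene lists and marker lists were chosen with earlier results of these data known. Up to 3 genes per direction of each list were named, those with the largest change among calls with a mean of at least 10 counts. The marker lists also covered endothelial, skeletal muscle, adipocyte, neutrophil and monocyte, and melanocyte genes. Intervals and counts cover the spread between mice of these groups, and the reads carry no molecular identifiers.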

Additional observations from a re-analysis of the deposited data

How the results depend on the processing

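The 3 and 4 calls for UV in WT and KO did not fall below those numbers under any alternative run, and rose to 4 in WT without 51F and to 5 in KO with the Langerhans cell marker mean as a covariate (Arnt, -0.23, adjusted P = 0.0316). For the genotype difference in UV response, DESeq2 gave 1 call against 0. The counts for the genotype differences in Control and UV mice and for the sex difference stayed at 0. Changes of sign were limited to values that did not pass, and their cause was not tested. For the difference in UV response these were Ahr in males alone (0.22), Ahr with the sebocyte (0.0070) and Langerhans cell covariates (0.047), and Arnt with the same covariates (0.00074 and 0.031). Arnt turned to -0.26 in WT with the Langerhans cell covariate and to 0.019 in KO with the sebocyte covariate. In Control mice KO against WT turned for Ahr (0.029) and Arnt (-0.024) in females alone and for Arnt with the sebocyte (-0.021) and Langerhans cell covariates (-0.028). In UV mice it turned for Ahr in males alone (0.062), Cyp1b1 in females alone (-0.45) and Arnt with the Langerhans cell covariate (0.0028). For the sex difference it turned for Ahr (-0.20), Cyp1b1 (-0.45) and Tiparp (-0.17) in KO alone, Arnt (-0.093) and Cyp1a1 (0.079) in WT alone, Cyp1a1 with the sebocyte covariate (0.057), Arnt (-0.026) and Tiparp (-0.023) with filterByExpr, and both (-0.021 and -0.017) without a filter. Without 1 mouse the values ran from -0.083 to 0.032 for the Ahr difference in UV response, -0.038 to 0.054 for Arnt after UV in WT, -0.035 to 0.046 for Arnt between Control genotypes, -0.0062 to 0.52 for Cyp1b1 between UV genotypes and, for the sex difference, -0.063 to 0.086 (Arnt), -0.59 to 0.10 (Cyp1a1), -0.11 to 0.34 (Cyp1b1) and -0.046 to 0.078 (Tiparp). Among pairs, r ran from 0.0032 to 0.30 for Ahrr with Arnt and from -0.076 to 0.21 for Ahrr with Tiparp. Counts of 3 to 31 reads limit Ahrr in WT UV mice. No paired analysis was possible because each mouse was its own animal in 1 group, and a number that recurs in the labels of a male and a female names different animals.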

Other observations

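The marker lists of the other cell types had the following summed levels. None of those correlated with the 6 genes passed, and the adipocyte list, with 1 gene tested, was not correlated. The 4 endothelial markers ran from 0.413 to 2.93 cpm in WT Control, 4.02 to 10.7 in WT UV, 0.3998 to 10.9 in KO Control and 4.26 to 24.2 cpm in KO UV mice, and 4 of 4 rose after UV in WT and 3 of 4 in KO. The 5 neutrophil and monocyte markers ran from 0.450 to 3.83 cpm in WT Control, 4.75 to 15.1 in WT UV, 0.791 to 3.35 in KO Control and 5.95 to 47.5 cpm in KO UV mice. The 4 that were tested rose in both genotypes. Ly6g and Mmp8 had 3 counts or fewer in every Control mouse, so either could enter the test only through UV mice. Skeletal muscle markers ran from 3.71 to 2312 cpm over all mice, and 0 of 4 passed in either genotype. Melanocyte markers ran from 0.496 to 12.5 cpm, with 1 of 4 rising in each genotype. The adipocyte list, with 1 of 4 genes tested, ran from 0 to 4.39 cpm, and that gene rose in both genotypes. The summed level was at most 0.445 cpm in WT Control and 0.982 cpm in WT UV mice. The tested gene therefore reached 1 cpm only in KO mice, and its call in WT cannot count as support for a rise. Of the 6 keratinocyte markers 1 rose and 4 fell in WT, and 2 rose and 3 fell in KO. Beside all these marker counts, 34.5% of all genes rose and 36.5% fell in WT, and 37.3% rose and 33.5% fell in KO. The highest value of the endothelial, muscle, neutrophil and monocyte lists in KO UV mice was that of 54F, the mouse that also stood out by its dermal fibroblast markers.

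No mouse lay far enough from the other 3 of its group in any of the 48 combinations of gene and group to pass Dixon's test for 4 values, although chance alone gives about 1 in 20.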
